A study of Schmidtea mediterranea with 5 samples.

Results

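The 5 transcripts described here are *EZH1* (SmedASXL_013155), *HDAC1* (SmedASXL_004281), *SPT16* (SmedASXL_016968), *wdr82-2* (SmedASXL_008379) and *BRG1L* (SmedASXL_011257) of the planarian *Schmidtea mediterranea*. By their names, they encode regulators of chromatin. They were chosen by name from a supplementary list of 59 known stem cell transcripts that accompanies the study. That list holds 13 chromatin regulators in all, as grouped here by function, and the deposited tables hold 82354 transcripts. All 5 had at least 1 CPM (counts per 1000000 mapped reads) in every library, so none was lost to a filter on low values.

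The study asked which genes mark and specify the progeny of planarian stem cells, and sequenced poly(A) RNA from sorted cells and whole animals. All animals were of the asexual clonal strain CIW4. The X1 library came from the Hoechst-stained, sorted fraction that is labelled as stem cells, and the X2 library from the sorted fraction that is labelled as their progeny. The irradiated library came from whole animals 7 days after 60 Gy of γ-irradiation. The *mex3-1(RNAi)* library came from whole animals 12 days after 1 feed of dsRNA against *mex3-1*, which encodes an RNA-binding protein, and the *control(RNAi)* library from whole animals fed *unc22* dsRNA on the same schedule. A general growth note gives 5 feeds, whereas the sample titles give 1. Each RNAi library was an equal pool of 3 RNA preparations. With 1 library of this series per condition (n = 1), no difference below has a replicate check, and the intervals cover counting error only. Libraries of the same sorted fractions and of irradiated animals from earlier studies, which the deposited tables also hold, were not used here.

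DNA in the nucleus is wrapped around histones, and chromatin regulators set which genes can be read by modifying histones or by moving and rebuilding them. Planarian stem cells, or neoblasts, are the only dividing somatic cells of the animal, and a high dose of γ-irradiation removes them. X1 cells hold more DNA than resting cells because they are in the cell cycle. The X2 gate takes post-mitotic progeny together with some stem cells that have not yet copied their DNA. The study found transcripts enriched in X2 in various cell types, not only in progeny, so this fraction is mixed.

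The libraries held 60528509 to 69835694 reads each. The summed level of 4 stem cell markers (*piwi-1*, *Bruli*, *PCNA* and *mcm2*) was 5170 CPM in X1, 1225 in X2, 11.4 in irradiated, 478 in *control(RNAi)* and 813 in *mex3-1(RNAi)*. The summed level of *prog-1* and *prog-2*, markers of early progeny, was 281, 6633, 1.82, 636 and 31.7 CPM in the same order, and that of *AGAT-1* and *AGAT-2*, markers of later progeny, was 30.7, 481, 46.7, 489 and 28.0 CPM. No marker was at 0 in any library. In the knockdown library the target *mex3-1* was at a log2 fold of -2.57 (95% counting interval -2.65 to -2.49) over the control library. Each fold is a ratio of CPM + 1. Taken over the transcripts that reached 5 CPM in both libraries of a comparison, the median log2 fold was 0.23 for X1 and 0.31 for X2 over irradiated, and 0.20 for X1 and 0.26 for X2 over *control(RNAi)*. Single log2 folds of these 4 comparisons are given relative to that median, and counts past a threshold use the folds as they are unless stated.

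*EZH1* is named after the catalytic subunit of Polycomb repressive complex PRC2, which methylates histone H3 at silenced genes. It was at 87.9 CPM (85.7 to 90.3) in X1, 77.3 (75.1 to 79.5) in X2, 11.6 (10.8 to 12.4) in irradiated, 22.6 (21.5 to 23.8) in *control(RNAi)* and 21.3 (20.2 to 22.5) in *mex3-1(RNAi)*. Both sorted fractions were high, the irradiated animals were lowest, and the intervals of both RNAi libraries overlapped.

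*HDAC1* encodes a histone deacetylase, an enzyme that takes acetyl groups off histone tails and is found in several repressor complexes. It was at 1259 CPM (1251 to 1268) in X1, 1065 (1057 to 1074) in X2, 169.9 (167 to 173) in irradiated, 362 (358 to 367) in *control(RNAi)* and 348 (343 to 352) in *mex3-1(RNAi)*. The order of the libraries was that of *EZH1*, here with no overlap between neighbouring intervals.

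*SPT16* encodes a subunit of FACT, a histone chaperone that takes nucleosomes apart and rebuilds them during transcription and DNA replication. It was at 497 CPM (491 to 502) in X1, 179 (176 to 183) in X2, 50.3 (48.6 to 52.0) in irradiated, 94.8 (92.5 to 97.1) in *control(RNAi)* and 155 (152 to 159) in *mex3-1(RNAi)*. X1 stood well above X2, and the knockdown library was above the control library.

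*wdr82-2* is named after WDR82, a WD-repeat protein that in yeast and mammals belongs to the SET1 complexes, which methylate histone H3 at active promoters. It was at 111 CPM (108 to 113) in X1, 45.5 (43.8 to 47.3) in X2, 6.42 (5.83 to 7.04) in irradiated, 16.4 (15.5 to 17.4) in *control(RNAi)* and 28.3 (27.0 to 29.6) in *mex3-1(RNAi)*. The order of its libraries was that of *SPT16*, again with no overlap.

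*BRG1L* is named after BRG1, the ATPase that drives the SWI/SNF remodelling complex of mammals along DNA. It was at 206 CPM (203 to 210) in X1, 230.1 (226 to 234) in X2, 73.3 (71.3 to 75.3) in irradiated, 101 (98.6 to 103) in *control(RNAi)* and 109.7 (107 to 112) in *mex3-1(RNAi)*. It was the only one of the 5 with X2 above X1, and the smallest ratio of its highest to its lowest library. Because transcript lengths were not used here, levels are not compared between the 5 genes.

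**Figure D1:**
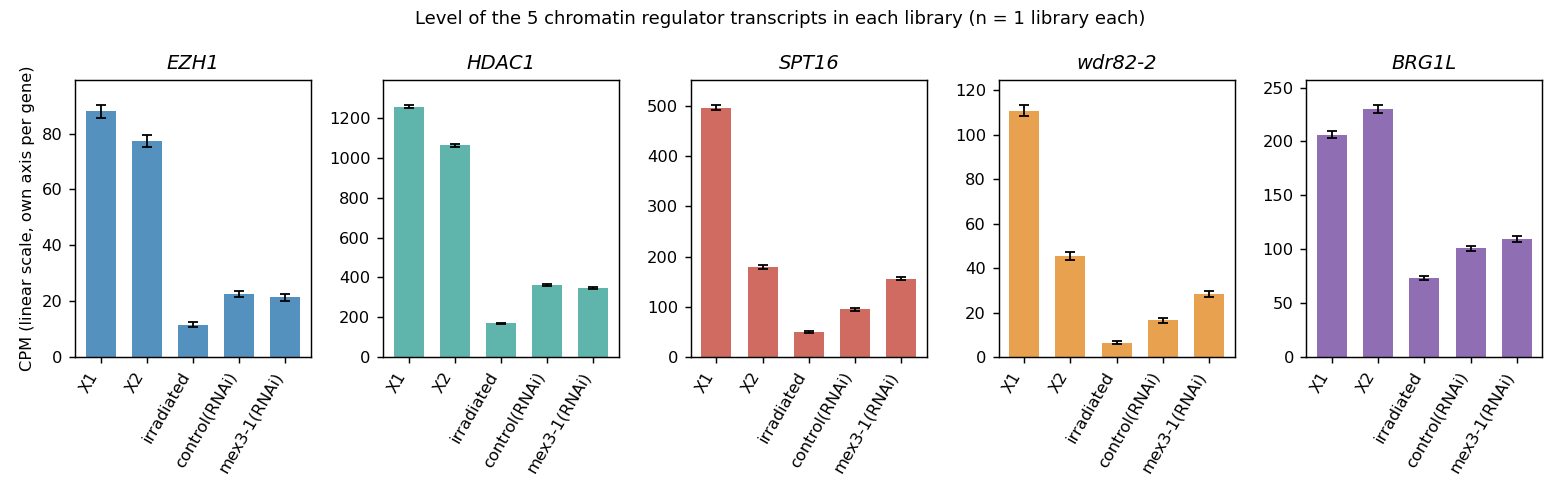
Level of the 5 chromatin regulator transcripts in CPM (linear scale from 0, a separate axis per gene) in each of the 5 libraries. Bars are single libraries and the error bars are 95% Poisson counting intervals. X1 is the tallest bar for *EZH1*, *HDAC1*, *SPT16* and *wdr82-2*, and X2 for *BRG1L* at 230.1 CPM, while irradiated is the shortest for all 5.

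The first comparison set each sorted fraction against irradiated animals, which lack dividing stem cells. In X1, all 5 were at least 2-fold higher, against a background of 24.1% of the 21044 transcripts tested. The list itself gathers stem cell genes, so this direction follows in part from how the list was made, and 58 of its 59 transcripts passed the same threshold. *wdr82-2* had the largest difference of the 5, at a log2 fold of 3.69 (3.57 to 3.81), followed by *SPT16* at 3.05 (3.00 to 3.10). The enzymes *HDAC1* and *EZH1* lay close together, at 2.66 (2.63 to 2.69) and 2.59 (2.49 to 2.69). The remodeller *BRG1L* had the smallest, at 1.26 (1.21 to 1.30), which placed it 58th of the 59 list transcripts. The other 4 were placed 23rd (*wdr82-2*), 31st (*SPT16*), 39th (*HDAC1*) and 41st (*EZH1*). Sorted cells and whole animals were prepared differently, which cannot be told apart from the cell type here.

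In X2, all 5 again passed 2-fold over irradiated animals, against 23.0% of the 20494 transcripts tested. All 59 list transcripts passed it as well, so this too follows in part from how the list was made. Here *wdr82-2*, *HDAC1* and *EZH1* had nearly the same log2 fold, at 2.34 (2.21 to 2.47), 2.33 (2.30 to 2.36) and 2.32 (2.22 to 2.42). *SPT16* was lower at 1.5 (1.45 to 1.56) and *BRG1L* at 1.33 (1.28 to 1.37). In bulk RNA, fewer cells of a type and less RNA per cell cannot be told apart. The 2-fold threshold was met by all 5 in both fractions also with the median log2 fold set to 0.

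Set against *control(RNAi)* animals, which keep their stem cells, the 5 were at least 2-fold higher in X1, against 17.9% of the 21288 transcripts tested. *wdr82-2* was again highest with a log2 fold of 2.48 (2.40 to 2.57) and *SPT16* next with 2.18 (2.14 to 2.21). *EZH1* was at 1.71 (1.63 to 1.79), *HDAC1* at 1.59 (1.57 to 1.61) and *BRG1L* at 0.82 (0.78 to 0.86). In X2, 4 of the 5 passed 2-fold over *control(RNAi)*, against 13.9% of the 20708 transcripts tested. *EZH1* led with 1.47 (1.39 to 1.55), ahead of *HDAC1* at 1.29 (1.27 to 1.31), *wdr82-2* at 1.15 (1.06 to 1.25) and *BRG1L* at 0.92 (0.88 to 0.96). *SPT16* was the one that did not pass, at 0.65 (0.61 to 0.69), or 1.88-fold before the median was subtracted. With the median set to 0, the counts were 4 in X1 and 3 in X2. Of the 59 list transcripts, 57 passed 2-fold in X1 and 43 in X2 before the median was subtracted. These comparisons and those over irradiated animals share the X1 and X2 libraries. The X1, X2 and irradiated values and the RNAi values were deposited in separate tables, each scaled to CPM by library.

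In the comparison of X2 with X1, 4 of the 5 were lower in X2, by unequal amounts. *SPT16* and *wdr82-2* were at least 2-fold lower in X2, which makes 2 of 5 against 6.69% of the 18151 transcripts tested, and 0 of 5 were at least 2-fold higher, against 13.8%. *SPT16* had a log2 fold of -1.47 (-1.5 to -1.44), and only 3.17% of the transcripts tested lay lower. *wdr82-2* had -1.27 (-1.33 to -1.20), and these 2 levels in X2 were 0.362 and 0.416 times those in X1. *HDAC1* had -0.24 (-0.26 to -0.23) and *EZH1* -0.18 (-0.24 to -0.13), both inside the bulk of all transcripts, 30.6% and 34.0% of which lay lower. *BRG1L* had 0.16 (0.12 to 0.19). By the counting interval alone, 1 of the 5 was higher and 4 were lower in X2, where 43.4% and 34.8% of all transcripts tested were higher and lower. *BRG1L* also stands on the study's list of the top 100 X2-enriched transcripts, under the name *brg1-1*. That list required a ratio of X2 to X1 above 1 and was drawn up with these libraries among others, so its direction is not independent evidence.

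The other 8 chromatin regulators of the list covered the same range. The heterochromatin protein genes *HP1-1* and *HP1-2* stood beside *SPT16* and *wdr82-2*, with X2 over X1 log2 folds of -1.49 and -1.42. *Suz12-1*, named after another PRC2 subunit, was at -0.72, which is lower than its partner by name, *EZH1*. *MBD23*, named after proteins that bind methylated DNA, was at 0.00 (-0.06 to 0.05). The genes *mll12*, *mll5-2*, *ash2-like* and *hcf1*, named after members of MLL histone methyltransferase complexes and their relatives, were at -0.13, -0.35, -0.33 and -0.46. Altogether 4 of the 13 regulators and 23 of the 59 list transcripts were at least 2-fold lower in X2. The median log2 fold was -0.24 for the 5, -0.35 for the 13, -0.64 for the 59 and 0.06 for all transcripts tested.

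**Figure D2:**
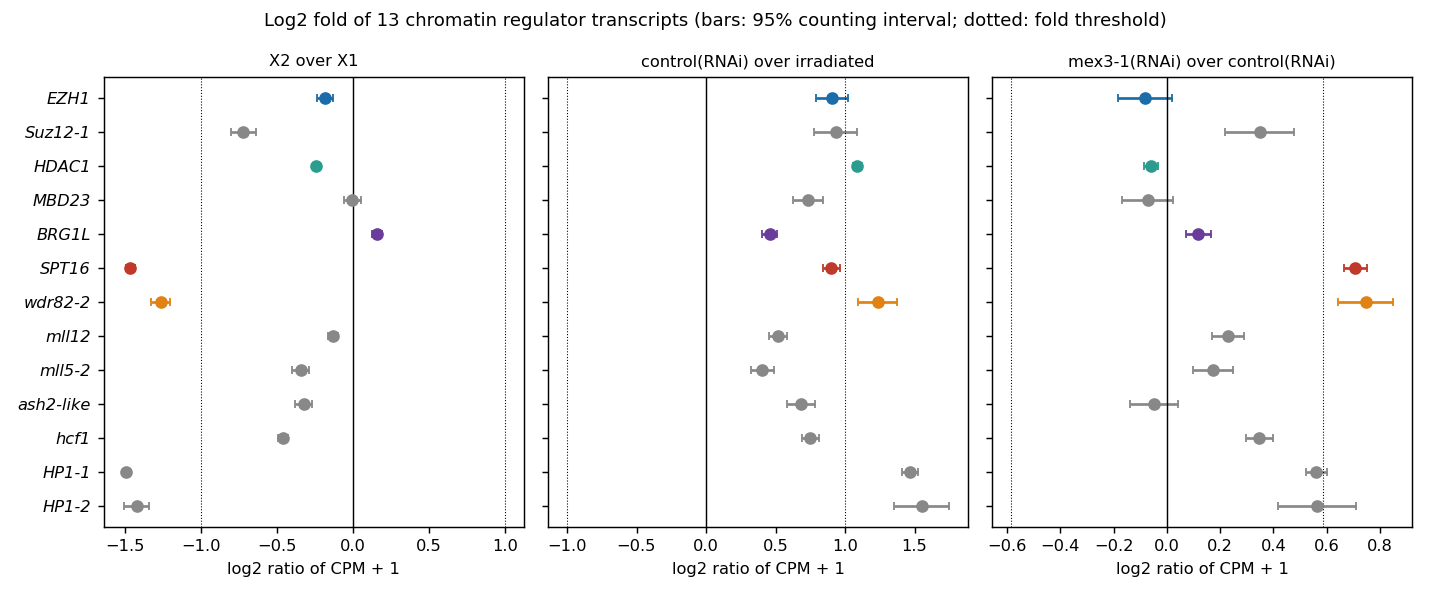
Log2 ratio of CPM + 1 for the 13 chromatin regulators of the list in 3 comparisons, each panel with its own x axis, with 95% counting intervals as bars and the fold threshold (2-fold, or 1.5-fold for the knockdown) dotted. The 5 genes described here are in colour. *SPT16* and *wdr82-2* lie left of the 2-fold line in X2 over X1 and right of the 1.5-fold line in *mex3-1(RNAi)* over *control(RNAi)*.

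The level of each transcript left 7 days after irradiation was read from CPM in irradiated over CPM in *control(RNAi)*. CPM is a share of the reads of a library, so the amount of RNA per animal was not measured. The irradiated animals held 39.0% (34.9 to 43.6) of the *control(RNAi)* level of *wdr82-2*, 46.9% (45.9 to 47.9) of *HDAC1*, 51.3% (47.1 to 55.9) of *EZH1*, 53.0% (50.9 to 55.3) of *SPT16* and 72.6% (70.0 to 75.2) of *BRG1L*. The 4 stem cell markers were left at much lower shares in the same pair of libraries. *piwi-1* was at 1.04%, *PCNA* at 1.29%, *mcm2* at 1.92% and *Bruli* at 6.24% of their *control(RNAi)* level. These markers were placed 3rd, 5th, 6th and 9th from the lowest of the 59 list transcripts, so they do not stand for the list as a whole. The median was 51.3% for the 5 and 41.2% for the 46 list transcripts that are not chromatin regulators, whose values ran from 0.293% to 83.1%. Over the 12388 transcripts with at least 5 CPM in *control(RNAi)* the median was 91.3%. All 5 regulators were thus left at larger shares than these 4 markers, and their reads in the irradiated library ran from 448 (*wdr82-2*) to 11867 (*HDAC1*).

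As a fold, *HDAC1* and *wdr82-2* passed 2-fold in *control(RNAi)* over irradiated animals, 2 of 5 against 3.29% of the 19254 transcripts tested. Their log2 folds were 1.09 (1.06 to 1.12) and 1.23 (1.09 to 1.38). Of the 59 list transcripts, 34 passed the same threshold, 30 of them among the 46 that are not chromatin regulators. *EZH1* and *SPT16* were just under the threshold, both at 0.90, with intervals of 0.79 to 1.02 and 0.84 to 0.96, and *BRG1L* was at 0.46 (0.41 to 0.51). *HDAC1* dropped below it at 0.99 when the median log2 fold was set to 0, and *wdr82-2* at 0.91 with a pseudocount of 5 CPM. By the counting interval all 5 were higher, as were 46.8% of the transcripts tested. The other regulators left from 25.4% (*HP1-2*) to 74.9% (*mll5-2*) of their level. *HP1-1* was at 35.8%, *Suz12-1* at 48.2% and *mll12* at 69.5%, with *hcf1* between *MBD23* at 58.6% and *ash2-like* at 60.9%. Irradiated and *control(RNAi)* animals also differed in dsRNA feeding and table, which cannot be told apart from the dose.

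**Figure D3:**
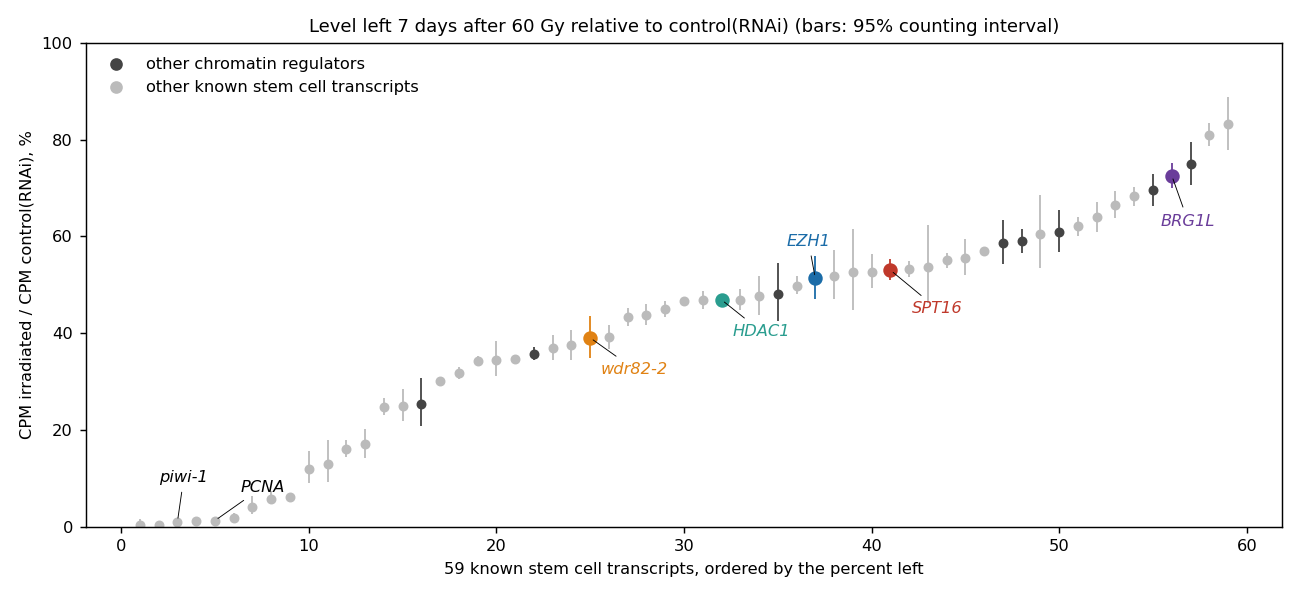
Level in irradiated animals as a percent of the level in *control(RNAi)* (linear y axis, 0 to 100%) for the 59 known stem cell transcripts, ordered from lowest to highest, 1 library each, with 95% counting intervals. *piwi-1* and *PCNA* sit near 1%, at places 3 and 5. The 5 coloured regulators run from 39.0% (*wdr82-2*) to 72.6% (*BRG1L*), at places 25, 32, 37, 41 and 56.

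Knockdown of *mex3-1* was compared with *control(RNAi)* at a threshold of 1.5-fold. *SPT16* and *wdr82-2* were above it, 2 of 5 against 1.70% of the 19639 transcripts tested, and 0 of 5 were at least 1.5-fold lower, against 1.99%. *SPT16* was 1.63-fold higher (1.58 to 1.69) and *wdr82-2* 1.68-fold higher (1.56 to 1.80). Of all transcripts tested, 98.9% lay below *SPT16* and 99.0% below *wdr82-2*. Within the list, 15 of the 59 transcripts passed the same threshold, 13 of them among the 46 that are not chromatin regulators. *wdr82-2* and *SPT16* were placed 11th and 12th of the 59. *BRG1L* had a log2 fold of 0.12 (0.07 to 0.17), *HDAC1* of -0.06 (-0.09 to -0.03) and *EZH1* of -0.08 (-0.18 to 0.02), so that the interval of *EZH1* included no change. By the counting interval, 3 of the 5 were higher and 1 was lower, where 25.1% and 21.3% of all transcripts tested were higher and lower.

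The stem cell markers also differed between these libraries. The log2 fold was 2.21 for *mcm2*, 1.84 for *PCNA*, 0.55 for *piwi-1* and 0.28 for *Bruli*, and the 4 markers summed to 478 CPM in *control(RNAi)* and 813 CPM in *mex3-1(RNAi)*. The early progeny markers went from 636 to 31.7 CPM. *SPT16* and *wdr82-2* thus lay between *piwi-1* and *PCNA*. The part of these markers' cells in the difference was not tested. Among the 8 other regulators, none reached 1.5-fold. *HP1-1* and *HP1-2* came closest at log2 folds of 0.56 each, or 1.47-fold (1.44 to 1.51) and 1.48-fold (1.33 to 1.64). Both intervals included 1.5, and with a pseudocount of 0.1 CPM, 3 of the 13 regulators passed 1.5-fold. *Suz12-1* and *hcf1* had log2 folds of 0.35, *mll12* of 0.23, *mll5-2* of 0.17, *ash2-like* of -0.05 and *MBD23* of -0.07. The median log2 fold was 0.12 for the 5, 0.23 for the 13, 0.28 for the 59 and 0.01 for all transcripts tested.

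X2 over X1 and *mex3-1(RNAi)* over *control(RNAi)* share no library, so their folds were set side by side. Of the 5, the 2 that were at least 2-fold lower in X2 were both at least 1.5-fold higher in *mex3-1(RNAi)*, and 0 of the other 3 were. Among the 13 regulators these counts were 2 of 4 and 0 of 9, and among the 59 list transcripts 15 of 23 and 0 of 36. The knockdown log2 folds ran from 0.56 to 0.75 in those 4 regulators and from -0.08 to 0.35 in those 9. Over all transcripts tested in both comparisons, 183 of 977 (18.7%) and 89 of 14601 (0.610%) were at least 1.5-fold higher in the knockdown. Across the 13 regulators, Pearson's r between the log2 folds was -0.88 and Spearman's rho -0.81, and without *HP1-1* and *SPT16*, the 2 farthest from the median in X2 over X1, they were -0.84 and -0.76. Across the 46 other list transcripts r was -0.90, and across the 7747 transcripts with at least 5 CPM in all 4 libraries it was -0.44. Genes are not independent replicates, and the points of each axis share a pair of libraries, so these are descriptions.

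**Figure D4:**
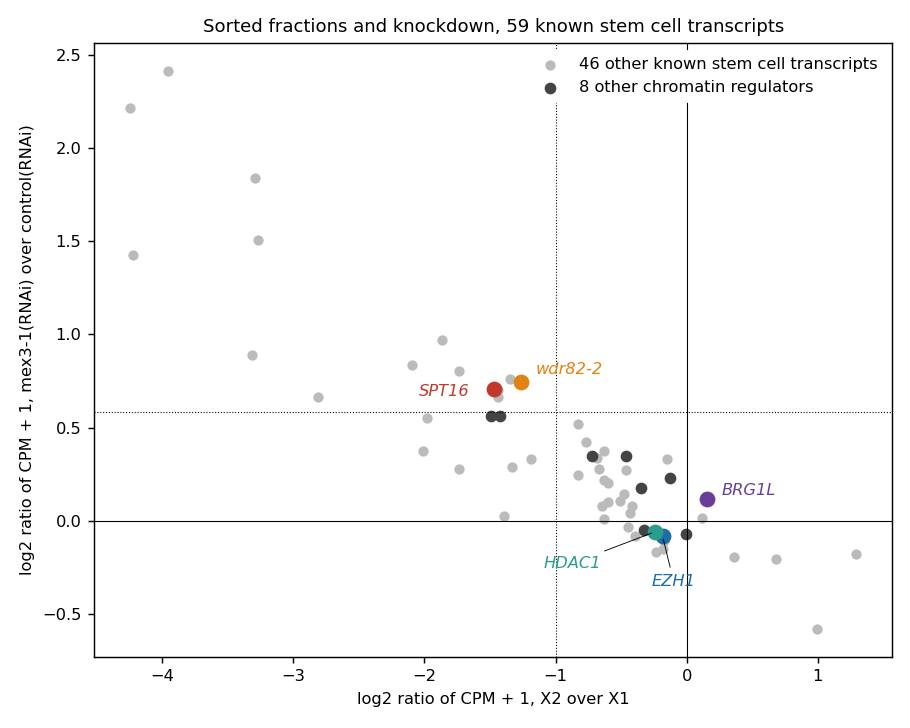
Log2 ratio of X2 over X1 (x axis) against log2 ratio of *mex3-1(RNAi)* over *control(RNAi)* (y axis), both of CPM + 1, for the 59 known stem cell transcripts, 1 point per transcript. Dotted lines mark 2-fold lower in X2 and 1.5-fold higher in the knockdown. *SPT16* (-1.47, 0.71) and *wdr82-2* (-1.27, 0.75) lie beyond both lines, and *EZH1*, *HDAC1* and *BRG1L* lie near 0 on both axes.

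To compare the 5 with each other without library scaling, the reads of each were divided by the *HDAC1* reads of the same library. This measure was chosen after the values had been seen. The reads of *EZH1* per 100 *HDAC1* reads stayed between 6.13 and 7.25 (6.98 in X1, 7.25 in X2, 6.83 in irradiated, 6.24 in *control(RNAi)* and 6.13 in *mex3-1(RNAi)* animals). The ratio changed 1.04-fold (0.998 to 1.08) from X1 to X2 and 0.983-fold (0.912 to 1.06) from *control(RNAi)* to *mex3-1(RNAi)*, so both intervals included 1. From irradiated to *control(RNAi)* animals the ratio changed 0.913-fold (0.837 to 0.997), an interval that excluded 1. The intervals in X1 (6.80 to 7.17) and X2 (7.04 to 7.47) lay above those in *control(RNAi)* (5.93 to 6.57) and *mex3-1(RNAi)* (5.81 to 6.48).

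*SPT16* had 39.4, 16.8, 29.6, 26.2 and 44.7 reads per 100 *HDAC1* reads in the same order of libraries. Relative to *HDAC1* it was at 0.426 (0.416 to 0.437) times its X1 value in X2 and 1.71 (1.65 to 1.77) times its control value in the knockdown. *wdr82-2* had 8.81, 4.27, 3.78, 4.53 and 8.13 reads, and the same 2 ratios were 0.485 (0.464 to 0.508) and 1.79 (1.66 to 1.93). Both genes were thus highest relative to *HDAC1* in X1 and *mex3-1(RNAi)*. They parted in irradiated animals, where *control(RNAi)* over irradiated was 0.884 (0.844 to 0.926) for *SPT16* and 1.20 (1.07 to 1.34) for *wdr82-2*.

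*BRG1L* had 16.4, 21.6, 43.1, 27.9 and 31.5 reads per 100 *HDAC1* reads, so that this ratio was highest in irradiated animals and lowest in X1. The level of *BRG1L* itself was lowest in irradiated animals, at 73.3 CPM, and was 206 CPM in X1. The ratio thus also carries the differences of *HDAC1*, at 169.9 CPM in irradiated animals and 1259 CPM in X1. Its ratio in X1 was 0.380 (0.366 to 0.394) times that in irradiated animals, and in X2 1.32 (1.28 to 1.35) times that in X1.

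Likeness of pattern was measured as the root mean square difference of log2(CPM + 1) over the 5 libraries, after the mean of each transcript was subtracted, against 13947 transcripts with at least 5 CPM in their highest library. Among the 5, *EZH1* and *HDAC1* were most alike at 0.0865 and *SPT16* and *wdr82-2* next at 0.285, while *wdr82-2* and *BRG1L* were least alike at 0.799. Of the 136 transcripts with a gene name, *vasa-2*, a Vasa-family RNA helicase gene, was nearest to *wdr82-2* at 0.0602, with 0 of all transcripts nearer, and *HP1-1* followed at 0.150. The Tudor-domain genes *tdrd1l2* at 0.0811 and *tud-1* at 0.225 were nearest to *SPT16*, with 2 and 55 transcripts nearer. *EZH1* was nearest to *RPC2* at 0.0697 and then *HDAC1*, with 24 and 41 transcripts nearer. *HDAC1* was nearest to *EZH1* and then to the list transcript Category 1 NB.10.4b at 0.0923, with 21 and 30 nearer. *BRG1L* had many close patterns, with 243 transcripts nearer than its first named one, *ANM8-1* at 0.121, and 528 nearer than *NF-YA*, the gene of a CCAAT-binding factor subunit, at 0.156. Only 5 libraries enter each measure.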

How the data were processed

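Poly(A) RNA (TruSeq) was sequenced as single-end reads, 1 library per condition. The authors mapped untrimmed reads to the SmedASXL transcriptome with Bowtie2 2.2.4 (submitters' processing notes) and deposited, as a signal per transcript, reads scaled to a fixed total of mapped reads (CPM) plus a pseudocount of 1. The authors' tables of enriched transcripts, which hold log2 folds and FDR values of their own test, were not used here, nor were 10 columns that match no sample of this series. By their headers these are further X1, X2 and irradiated libraries of earlier studies, which the authors used as replicates beside those analysed here, and controls of other time points or another study. Subtracting 1 gave multiples of 1 read within 0.01 read for 100% of values; the implied library totals were 64821930 reads for X1, 60528509 for X2, 69835694 for irradiated animals, 68883087 for *control(RNAi)* and 63209234 for *mex3-1(RNAi)*. A row naming no transcript (at most 4.94e-05% of reads) was left out.

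Folds are ratios of CPM + 1 over transcripts that reached 1 CPM in either of the libraries, which understates the change of low transcripts. Intervals are 95%, from exact Clopper-Pearson limits of the reads of one library among both (folds), Poisson limits (CPM) or a log-scale approximation (ratios to *HDAC1*). A count of 0 allows 3 reads, or 0.0430 to 0.0496 CPM by library. No p-value is given, since each condition has 1 library. Thresholds were 2-fold, and 1.5-fold for the knockdown. The 5 genes and the 13 regulators were always named, with 2 named transcripts of nearest pattern per gene; names come from the supplementary files. Members and lists were chosen with earlier results of these data known. The alternatives were setting the median log2 fold to 0, leaving the 10 most abundant transcripts out of CPM, changing the pseudocount to 0.1 or 5 CPM, changing the filter, and calling by counting intervals that exclude 1. Only the fold, called at 2-fold, and its counting interval were tested on simulated reads of the knockdown comparison. Spread between libraries was not simulated. Reads shared with near-identical transcripts were not analysed here. Analyses ran in Python 3.11.15 (scipy 1.17.1, pandas 2.3.3, numpy 2.4.6), and plots were drawn with matplotlib 3.10.9.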

Additional observations from a re-analysis of the deposited data

How the results depend on the processing

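None of the 35 folds of the 5 genes (7 comparisons) reversed under either pseudocount, with the median set to 0 or without the 10 most abundant transcripts. The largest shifts were 0.18 and 0.57 log2 units with pseudocounts of 0.1 and 5 CPM, 0.31 with the median set to 0 and 0.19 without the 10 most abundant transcripts. These counts among the 5 genes and the 13 regulators moved by over 1.5 times. For X2 over X1, a counting interval that excludes 1 gave 1 gene higher and 4 lower, where the 2-fold threshold gave 0 and 2. For *control(RNAi)* over irradiated, the 2 genes higher became 1 with a pseudocount of 5 CPM, 1 with the median set to 0 and 5 with the counting interval, and the 4 of 13 regulators became 2 with a pseudocount of 5 CPM. For *mex3-1(RNAi)* over *control(RNAi)*, the counting interval gave 1 gene lower in place of 0. The shares of all transcripts past a threshold depended on the filter and the pseudocount. Without a filter, 24.1% became 7.43% (X1 over irradiated, higher), 6.69% became 1.78% (X2 over X1, lower), 3.29% became 0.927% (*control(RNAi)* over irradiated, higher) and 1.70% became 0.425% (knockdown, higher). With pseudocounts of 0.1 and 5 CPM, the share lower in X2 was 10.1% and 3.20%, that higher in *control(RNAi)* 5.13% and 1.34%, and that higher in the knockdown 3.03% and 0.749%. A filter at 5 CPM moved no share by over 1.5 times. No paired analysis was made, because 1 library per condition was used here and the sample titles give no replicate numbers. Each of the 5 had at least 448 reads per library, so counting error was small, and the spread between libraries of a condition was not measured here.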
